A study of Bos taurus with 2 samples.

Results

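ACTB, which encodes cytoplasmic beta-actin, and GAPDH, which encodes the glycolytic enzyme glyceraldehyde-3-phosphate dehydrogenase, were followed in bovine longissimus muscle at 2 stages of life. The tables list 16174 genes in all, and these 2 were chosen as the genes most often used as internal references. Their identifiers are ENSBTAG00000026199 for ACTB and ENSBTAG00000014731 for GAPDH. The gene models of 1829 nt and 1056 nt both lay inside the 900 to 2500 nt set as a check of identity. The deposited tables give identifiers alone, without names, and the RefSeq gene table used here (assembly ARS-UCD2.0) holds 0 Ensembl identifiers. The pairing of name and identifier therefore rests on general knowledge, and no genome position or sequence is given. The length check is loose and cannot establish identity, since other models pass it, such as the 1140 nt model of ENSBTAG00000043550 described below.

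All animals were Qinchuan cattle, a Chinese beef breed. The Emb135 group was muscle from before birth, taken 135 days after insemination, and the 30M group was adult muscle taken 30 months after birth. A single polyadenylated RNA library was made per stage, from a pool of 3 animals, with no treatment named in the labels. The libraries held 17736812 unique reads for Emb135 and 19970007 for 30M, each total being the sum over the listed genes. All reads, shares and RPKM below refer to these totals, which leave out reads placed outside the listed genes. As each stage has 1 library, there is no replicate spread and no test, and each ratio below compares these 2 libraries. Intervals cover the counting of independent reads only, at 95%, and not differences between animals, pools or library preparations. The labelled tissue was not checked against marker genes, because no marker could be matched by symbol.

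Beta-actin polymerises into the filaments of the cell cortex, of protrusions and of the migrating cell. It is made by nearly every cell type, including the fibroblasts, vessel cells and muscle precursors of a muscle, while the contractile filaments of mature muscle fibres use the skeletal alpha-actin encoded by another gene. GAPDH oxidises and phosphorylates glyceraldehyde-3-phosphate and yields NADH. Adult skeletal muscle, its fast glycolytic fibres above all, is rich in glycolytic enzymes. Both transcripts serve as denominators in quantitative PCR, where the level of a gene of interest is divided by that of the reference gene, so the result inherits any difference of the reference between samples.

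ACTB was lower and GAPDH was higher in the adult library. ACTB had 44515 reads in Emb135 and 23320 in 30M, and its level per length was an RPKM (reads divided by gene model length and by the unique reads of the whole library) of 1372 in Emb135 and 638.5 in 30M. GAPDH had 50302 reads in Emb135 and 100482 in 30M, at an RPKM of 2686 and 4765. The 2 genes thus lay in opposite directions from equality. Because whole tissue was sequenced, a different number of cells of a type and a different amount of the transcript per cell cannot be told apart for either gene.

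**Figure D1:**
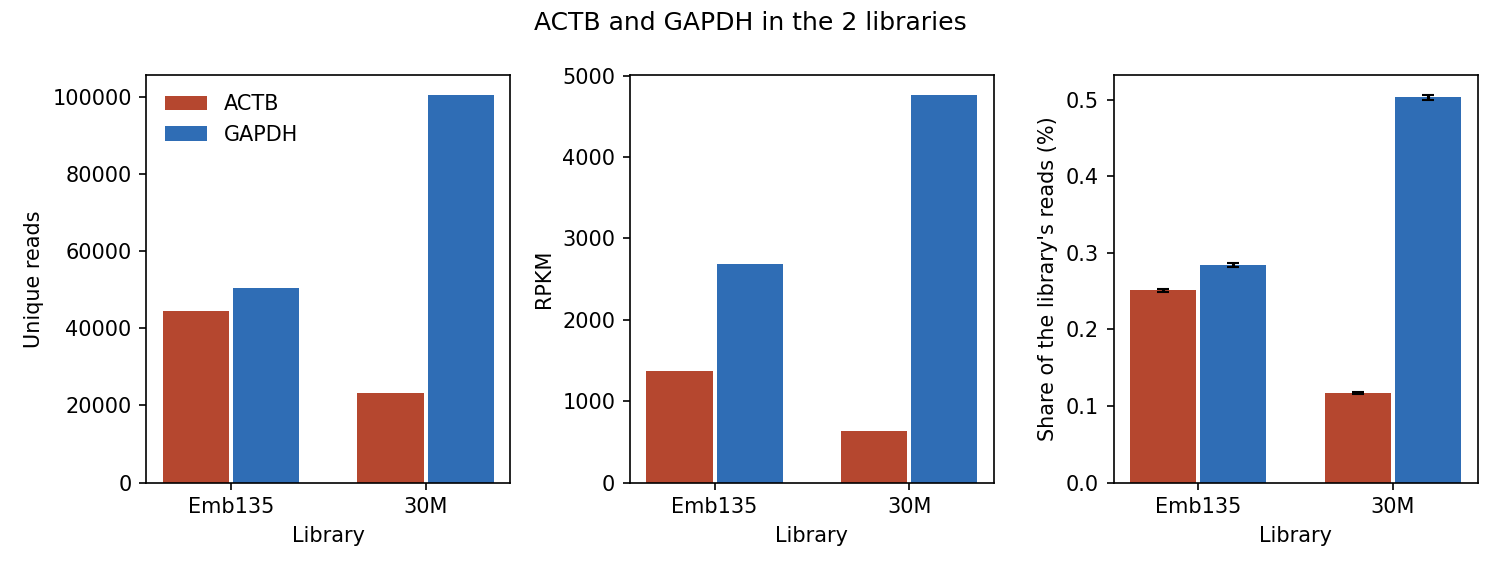
Unique reads, RPKM and share of the library's reads (%) of ACTB and GAPDH in the Emb135 and 30M libraries, 1 library per stage; error bars on the shares are exact 95% counting intervals. ACTB is lower in 30M and GAPDH is higher on each of the 3 scales, and the shares of the 2 genes are close in Emb135 (0.251% and 0.284%) and far apart in 30M (0.117% and 0.503%).

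The RPKM of ACTB was 2.15-fold lower in 30M, a log2 ratio of 30M over Emb135 of -1.10 with a counting interval of -1.13 to -1.08. The RPKM of GAPDH was 1.77-fold higher in 30M, a log2 ratio of 0.83 with a counting interval of 0.81 to 0.84. By a threshold of 2-fold on the deposited scale, ACTB was past it as lower and GAPDH was not past it as higher. Among the 10647 genes with an RPKM of 1 or more at both stages, 30.4% were lower and 11.7% higher by that threshold, so a gene past it on the lower side was common. ACTB was lower and GAPDH higher in 30M on the deposited scale and under each of the other 5 scalings tried, but their sizes differed. When the median ratio of those genes was set to equality, which multiplies the 30M values by 1.40, the log2 ratio of ACTB was -0.62 and that of GAPDH 1.31. The side of the 2-fold threshold then changed for both: ACTB was no longer past it and GAPDH was. ACTB was short of 2-fold under all 5, and GAPDH was past it under 4 of them, TPM being the exception.

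RPKM is relative to the unique reads of a library counted in the listed genes, and the adult reads were more concentrated in a few genes. The 87 genes, other than GAPDH, that ranked among the first 50 by reads in either library held 29.7% of all reads in Emb135 and 45.7% in 30M. Scaled by totals that leave out the first 50 genes of either library, the log2 ratio of ACTB was -0.72 and that of GAPDH 1.21. On the TPM scale, which divides by the summed per-length values, they were -0.99 and 0.94.

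The ratio of GAPDH to ACTB within a library does not depend on how the 2 libraries are scaled to each other. Per length, GAPDH stood at 1.96 times the level of ACTB in Emb135 and at 7.46 times in 30M. The ratio between the 2 genes was therefore 3.81-fold larger in 30M, a log2 difference of 1.93 with a counting interval of 1.90 to 1.96. In reads, without the correction for length, the ratio was 1.13 in Emb135 and 4.31 in 30M. In Emb135 the read counts of the 2 genes were close while their levels per length were not, the ACTB model being the longer one.

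Both genes were among the most read of each library. ACTB took 0.251% of all reads in Emb135 (exact binomial interval 0.249 to 0.253%) and 0.117% in 30M (0.115 to 0.118%). This is 1 read in 398.4 in Emb135 and 1 in 856.3 in 30M. GAPDH took 0.284% in Emb135 (0.281 to 0.286%) and 0.503% in 30M (0.5001 to 0.506%), or 1 read in 352.6 and 1 in 198.7. Their summed share was 0.535% in Emb135 and 0.620% in 30M, so the sum differed less between the libraries than either gene did.

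By reads, ACTB ranked 57 of 15522 genes with a read in Emb135 and 87 of 14853 in 30M. GAPDH ranked 40 in Emb135 and 22 in 30M. Ranked by RPKM, which takes out gene length, ACTB was 104 in Emb135 and 143 in 30M, and GAPDH was 64 and 20. ACTB thus moved down the order and GAPDH up it on both measures. The genes ranked above ACTB by reads held 28.2% of all reads in Emb135 and 48.3% in 30M, and those above GAPDH 23.7% and 33.4%. Against the median gene with a read, the RPKM of ACTB was 220.5 times as high in Emb135 and 136.5 times in 30M. The RPKM of GAPDH was 431.5 and 1019 times that of the median gene.

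Coverage, the deposited percentage of each gene model with a read, was near complete for both genes at both stages. For ACTB it was 99.84% in Emb135 and 99.78% in 30M, which leaves 3 nt and 4 nt of the model without a read. For GAPDH it was 99.81% in Emb135 and 99.91% in 30M, which leaves 2 nt and 1 nt. Almost every nt of both models thus had a read at both stages. At 24.3 and 12.8 reads per nt for ACTB, and 47.6 and 95.2 for GAPDH, coverage could not show fewer reads over a part of a model. Coverage says nothing of how evenly the reads lay. Among other genes of like length (0.8 to 1.2 times) and like reads (0.5 to 2 times) in the same library, 9 of 14 had lower coverage than ACTB in Emb135 and 14 of 20 in 30M. For GAPDH the counts were 11 of 16 in Emb135 and 5 of 5 in 30M. The median coverage of these comparison genes in Emb135 and 30M was 99.485% and 99.17% for ACTB. For GAPDH it was 99.675% and 99.89%, so the counts rest mostly on small differences near full coverage.

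The reads counted are those placed uniquely. Actin genes share long stretches of near-identical coding sequence, and processed copies of GAPDH are known in mammalian genomes. Reads that fit more than 1 place would be missing from either gene's count, and the tables do not say how many. The levels of ACTB and GAPDH are therefore uncertain in this respect, and whether the missing part differed between the stages was not tested.

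The place of each gene among all others shows how the 2 differ as a yardstick. Across these 10647 genes the median log2 ratio was -0.48, with quartiles of -1.16 and 0.27. ACTB lay below that median, with 2858 genes at a lower ratio and 7788 at a higher one. GAPDH lay far above it, with 9161 genes at a lower ratio and 1485, or 13.9%, at a higher one. On the log2 scale ACTB was 0.62 below the median and GAPDH 1.31 above it.

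**Figure D2:**
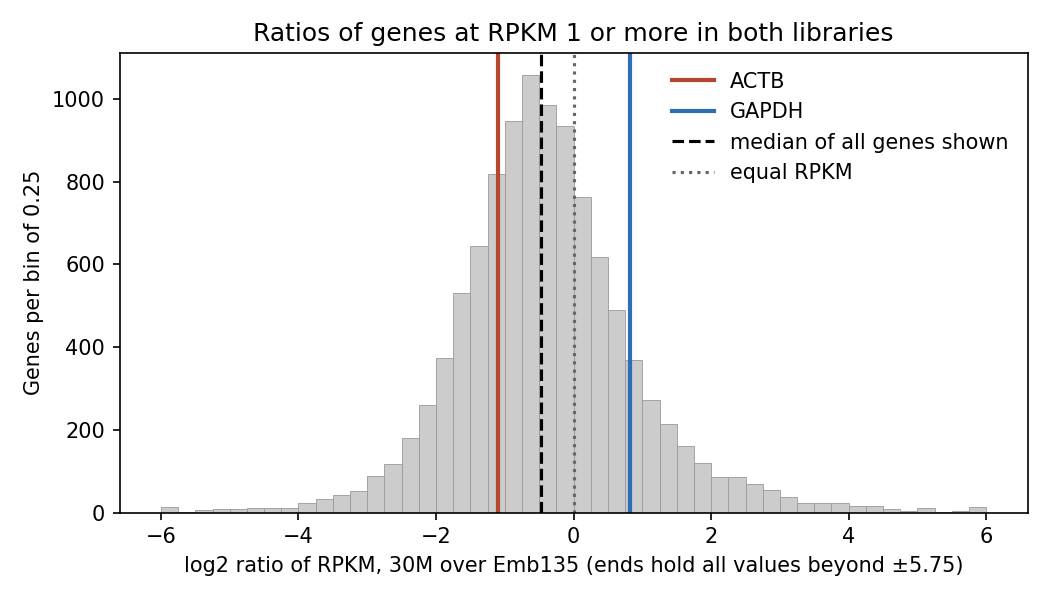
Number of genes by log2 ratio of RPKM (30M over Emb135) for the 10647 genes with an RPKM of 1 or more at both stages; coloured lines mark ACTB and GAPDH, the dashed line the median and the dotted line equal RPKM. ACTB at -1.10 lies to the left of the median at -0.48, and GAPDH at 0.83 lies in the right flank.

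Compared with genes of like abundance, ACTB was in the middle and GAPDH towards the top. Within 1 log2 unit of the mean log2 RPKM of ACTB were 122 other genes, with a median log2 ratio of -1.19 and quartiles of -1.82 and 0.71. Of these, 63 had a lower ratio than ACTB and 59 a higher one, and 35 (28.7%) had a ratio closer to equality. Within 1 log2 unit of GAPDH were 44 other genes, with a median of -1.79 and quartiles of -2.00 and -0.48. Of these, 35 had a lower ratio than GAPDH and 9 a higher one. On the deposited scale 4 of the 44 (9.09%) had a ratio closer to equality than GAPDH. After rescaling by the median ratio this order turned: 13.9% of the genes around ACTB and 29.5% of those around GAPDH were closer to equality than the member. On the deposited scale 31 of the 44 genes in this window around GAPDH were at least 2-fold lower in 30M, and 8 at least 2-fold higher. Among all 10647 genes the shares were 30.4% and 11.7%. A floor on abundance, without an upper limit, gave other counts. Of the 9 other genes with at least the lower RPKM of GAPDH in both libraries, 0 were 2-fold lower and 4 were 2-fold higher. These 9 can lie far above GAPDH, and a gene under the floor in either library is left out. Their counts are therefore not a like comparison with those of the 44.

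By the rule for naming, the gene nearest to each member over the log2 RPKM of both libraries was identified. For ACTB this was ENSBTAG00000005735, whose model spans 597 nt. It had 14975 reads in Emb135 and 8697 in 30M. The RPKM was 1414 and 729.5 in that order. Its log2 ratio was -0.96, at a distance of 0.20 log2 units from ACTB. For GAPDH it was ENSBTAG00000043550, whose model spans 1140 nt. It had 63531 reads in Emb135 and 137873 in 30M. The RPKM was 3142 and 6056 in that order. Its log2 ratio was 0.95, at a distance of 0.41. Within 0.5 log2 units lay 6 genes for ACTB and 1 for GAPDH, so the surroundings of GAPDH were sparser. Likeness over 2 libraries is a statement of level alone.

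**Figure D3:**
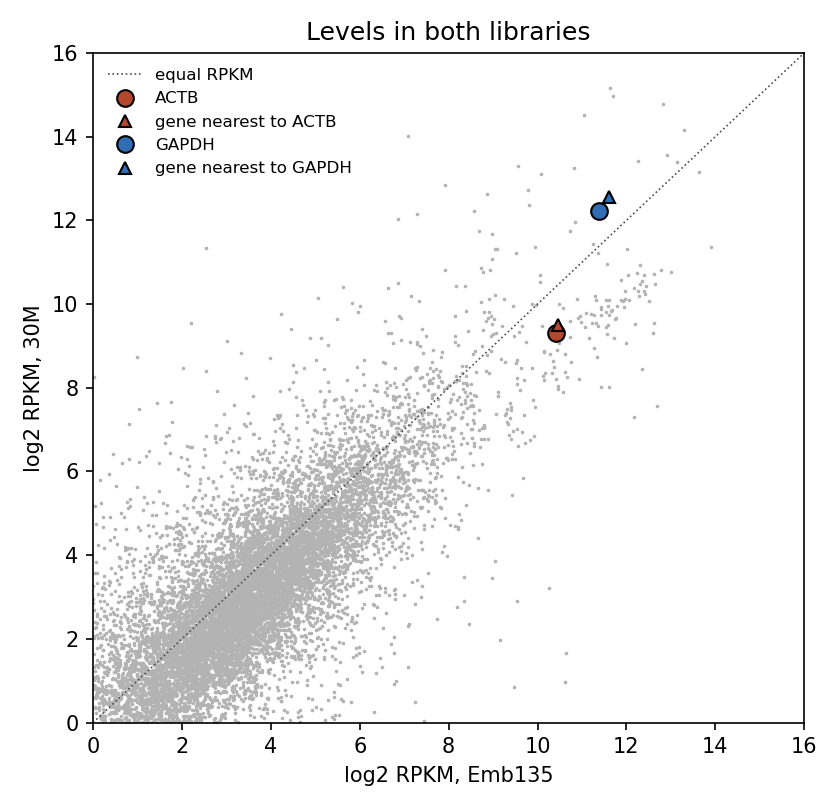
log2 RPKM in Emb135 (horizontal) and 30M (vertical) for genes with an RPKM of 1 or more at both stages, 1 grey point per gene; circles mark ACTB and GAPDH, triangles the gene nearest to each, and the dotted line equal RPKM. ACTB lies below the line with 6 genes within 0.5 log2 units, and GAPDH lies above it with 1.

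Used as the scaling reference, the 2 genes turned the middle of the transcriptome in opposite directions. Setting ACTB equal between the stages multiplies every 30M value by 2.15, and the median log2 ratio of the other genes became 0.62. The middle gene was then 1.54-fold higher in 30M. Setting GAPDH equal divides every 30M value by 1.77, and the median became -1.31, with the middle gene 2.48-fold lower in 30M. The mean of both log2 ratios as reference, which corresponds to the geometric mean of the 2 genes, multiplies 30M by 1.10 and gave a median of -0.34. The opposite directions of ACTB and GAPDH nearly cancel in that mean, so it stayed close to the deposited scale. The distance between the medians under ACTB and under GAPDH is the difference between the 2 genes themselves, 3.81-fold.

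The share of genes above equality followed. It was 73.2% with ACTB as reference, 13.9% with GAPDH, 37.3% with the mean of both and 32.8% as deposited. Of the 10645 other genes, 6302, or 59.2%, were above equality with ACTB and below it with GAPDH. Only 1485 genes were above equality with both references and 2858 below it with both. For most genes, the sign of the stage difference was thus set by which of the 2 references was chosen.

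Counts past 2-fold changed in the same manner. With ACTB as reference 3854 genes (36.2%) were higher and 734 (6.89%) lower in 30M. With GAPDH 561 (5.27%) were higher and 6541 (61.4%) lower. With the mean of both 1428 (13.4%) were higher and 2747 (25.8%) lower, against 1247 (11.7%) and 3235 (30.4%) as deposited. The 561 genes higher with GAPDH were also higher with ACTB, and the 734 lower with ACTB were also lower with GAPDH, as a common factor makes unavoidable. Only 252 genes (2.37%) were past 2-fold with neither reference. At this threshold 0 genes were higher with ACTB and lower with GAPDH, because the 3.81-fold distance between the references is just under the product of both thresholds. At a threshold of 1.5-fold, 2727 genes (25.6%) were called in opposite directions by the 2 references.

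**Figure D4:**
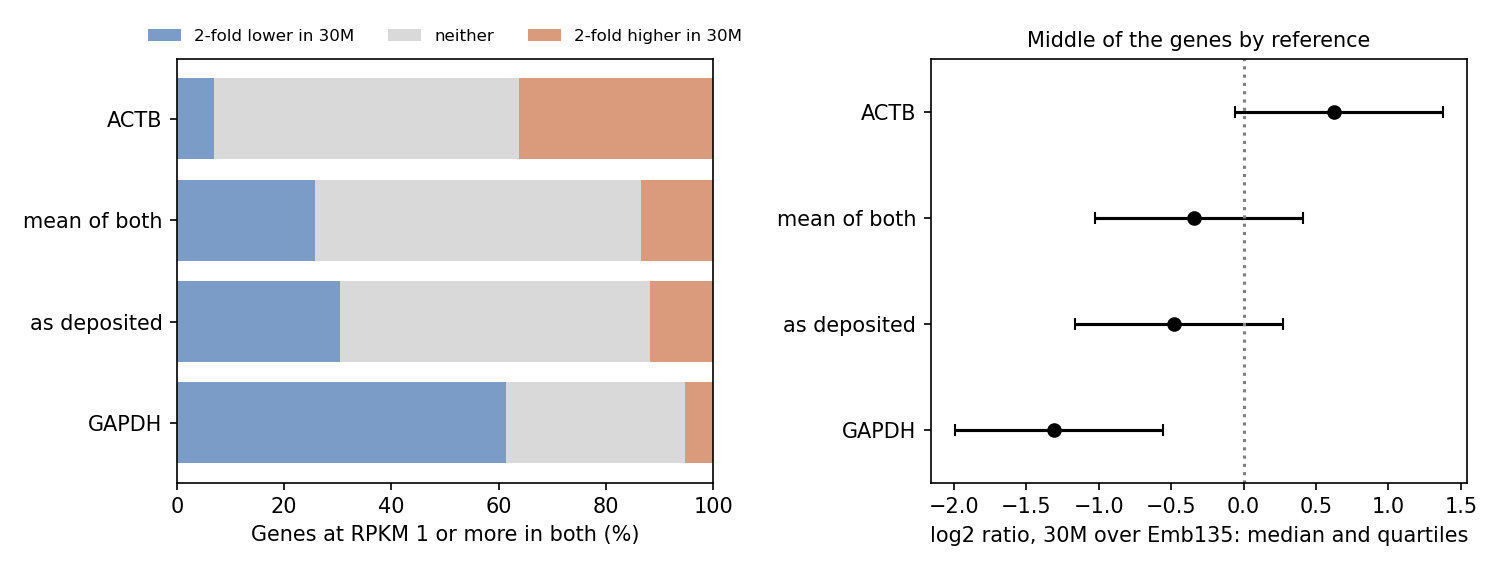
Left, percentage of genes with an RPKM of 1 or more at both stages that were 2-fold lower, neither or 2-fold higher in 30M, by scaling reference; right, median log2 ratio (30M over Emb135, points) with quartiles (bars). Lower genes make up 61.4% with GAPDH and 6.89% with ACTB, and the median passes from -1.31 to 0.62.

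A reference shifts every gene by the same amount, so classes of abundance keep their differences under each. As deposited, the median log2 ratio was -0.43 for the 2585 genes with a mean RPKM between 1 and 5, -0.53 for the 4739 at 5 to 20, -0.44 for the 2613 at 20 to 100 and -0.27 for the 522 at 100 to 500. It was -1.29 for the 186 genes at 500 or more, the class that holds ACTB and GAPDH. With ACTB as reference the medians of the first 4 classes were above 0, between 0.57 and 0.84, and that of the most abundant class was -0.19. With GAPDH as reference all 5 were below 0, from -2.12 in the most abundant class to -1.09 at 100 to 500. ACTB was thus close to the middle of its own class and apart from the middle of the other 4. In the most abundant class 53.8% of the genes had a lower ratio than ACTB, against 22.5 to 28.2% in the others. The genes with a higher ratio than GAPDH were 10.8% at a mean RPKM of 1 to 5 and 27.4% at 500 or more.

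**Figure D5:**
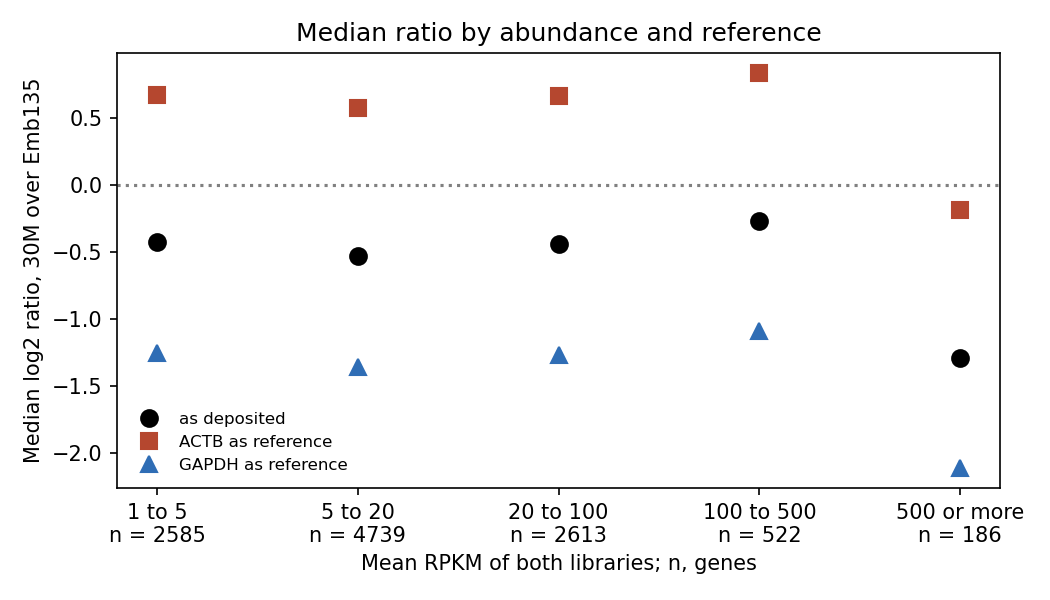
Median log2 ratio of RPKM (30M over Emb135) in 5 classes of mean RPKM, without ACTB and GAPDH, on the deposited scale (circles), with ACTB as reference (squares) and with GAPDH as reference (triangles); n is the number of genes. Only the class at 500 or more is below 0 with ACTB as reference, at -0.19, and all 5 are below 0 with GAPDH.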

How the data were processed

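Poly(A) RNA of longissimus muscle was sequenced on an Illumina instrument from 1 pool of 3 animals per stage, per the labels' protocols. Which aligner, counter, build and annotation were used is not given in the sources used here. The authors deposited unique read counts per gene that are not normalized, per the file headers. The authors' RPKM was recomputed from the deposited counts, lengths and totals, with a relative error of at most 2.2e-14. Coverage was read from the deposited signal column as a percentage of the gene model.

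A gene missing from a table was taken at 0 reads. Ratios used RPKM without a pseudocount, over the 10647 genes with an RPKM of 1 or more at both stages; a reference gene was left out of its own median and counts. For 7 genes the tables list different lengths. Intervals were Clopper-Pearson (SciPy 1.17.1), and for the ratio between the 2 genes came from the log odds ratio. The computation of medians and calls was tested on simulated data with known changes, which checks the calculation and not the stage difference.

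The genes named are ACTB, GAPDH and the gene nearest to each by Euclidean distance over log2 RPKM. Members, lists, abundance classes and alternatives were chosen with earlier results of these data known. Of the 3 lists (glycolysis, actins, other common reference genes) and 6 marker lists (skeletal muscle, fibroblast, adipocyte, endothelium, red cells, smooth muscle), 0 symbols could be matched to the identifiers, and they were not analysed here. Alternatives were other pseudocounts, filters, fold thresholds, windows of abundance, measures of share and rank, scalings between libraries, and thinning of the 30M reads.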

Additional observations from a re-analysis of the deposited data

How the results depend on the processing

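Of 89 recomputed values, 31 stayed the same, 58 moved and 0 reversed. To count as the same, a ratio, median or share had to stay within the 95% counting or binomial interval set for it. These intervals only set a cut for the labels and are not a test. A binomial interval on a share of genes also takes the genes as independent, which they need not be. A count of genes had to stay within 1.5 times, and a rank unchanged. Only log2 ratios and medians carry a sign, so counts, shares and ranks could not reverse. Rescaling by the median ratio cannot alter the share of genes with a lower ratio than a member, so those values were bound to stay. Pseudocounts of 0.5 and 1 and thinning of 30M to the Emb135 total left the ratios of ACTB and GAPDH, and the ratio between them, inside their intervals. This was close to bound to happen and is weak evidence of stability. The pseudocounts are small beside an RPKM of 638.5 or more, and thinning kept most of the 30M reads. Scaled by the median ratio, the log2 ratio of ACTB was -0.62. It was -0.57 by the trimmed mean of log ratios and -0.68 by the 75th percentile. By totals lacking the 50 leading genes of either library it was -0.72, and as TPM -0.99. Each was short of 2-fold. The log2 ratio of GAPDH was 1.31, 1.36, 1.25, 1.21 and 0.94 in the same order. The median with ACTB as reference was 0.73 and 0.79 at a minimum RPKM of 5 and 10, 0.55 with 1 read or more in both, 0.57 with an RPKM of 1 in either library and a pseudocount of 0.5, 0.66 with that pseudocount alone and 0.70 as a mean. With GAPDH it was -1.20, -1.14, -1.38, -1.36, -1.27 and -1.23. At 1.5-fold the genes higher and lower were 1920 and 4902 as deposited and 2218 and 4300 with the mean of both, and 1362 were lower with ACTB. At 4-fold they were 481 and 867 as deposited, 1380 and 194 with ACTB, 222 and 2642 with GAPDH, and 543 and 707 with the mean of both. At a minimum RPKM of 5, which leaves fewer genes, they were 694 and 1626, 2474 and 300, 271 and 3782, and 809 and 1338. With an RPKM of 1 in either library and a pseudocount of 0.5 together, 1177 were lower with ACTB. After rescaling by the median ratio, genes of like abundance closer to equality were 13.9% for ACTB, against 28.7%, and 29.5% for GAPDH, against 9.09%. As a share of summed RPKM, ACTB was 0.183% in Emb135 and 0.0920% in 30M, and GAPDH 0.359% and 0.687%. A further measure left out the 87 genes, other than GAPDH, among the first 50 by reads in either library. Of the remaining reads, the shares in Emb135 and 30M were 0.357% and 0.215% for ACTB and 0.403% and 0.927% for GAPDH. Ranks by RPKM were 104 and 143 for ACTB and 64 and 20 for GAPDH. No paired analysis was possible because there was a single library per stage; leaving out a replicate was likewise not possible.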

Other observations

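Other abundant genes were taken in turn as the single reference, a comparison added after the values were seen. At an RPKM of 638.5 or more in both, the lower of the 2 values of ACTB, there were 91 other genes. Their log2 ratios ran from -3.08 to 3.75 with a median of -1.42, and 6 of them were within 1.2-fold of equality. With each used alone, the median log2 ratio of all genes with an RPKM of 1 or more at both stages ran from -4.23 to 2.60, with quartiles of -0.64 and 1.36. ACTB gave 0.62, and 14 of the 91 genes lay closer than ACTB to the middle of all genes. At an RPKM of 2686 or more in both, the lower value of GAPDH, there were 9 other genes, with ratios from -0.49 to 3.53 and a median of 0.95. Of these, 3 lay closer than GAPDH to the middle of all genes. These sets were cut by the lower of the 2 values, so a gene that is high in only 1 library is left out of them.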
